A study of Mus musculus with 8 samples.

Results

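The persistently methylated tiles described here are 4038 stretches of the mouse genome, each 1 kb long, that stayed at 80% methylation or more in every one of 8 bisulfite libraries of embryonic stem cells. They were chosen from 35149 eligible tiles. A tile was eligible if it lay on chromosomes 1 to 19 and held 3 to 10 CpGs that every library covered with at least 10 reads. Its level in a library is the share of methylated reads over those CpGs, weighted by coverage. The persistent tiles made up 11.5% of the eligible tiles. They were 37.7% of the 10709 tiles that reached 80% in the 4 libraries without vitamin C. The remaining 6671 of those, called the other high tiles below, fell short of 80% in at least 1 library with vitamin C. Another 43 tiles at 80% or more in all 8 libraries held more than 10 CpGs and are outside the rule.

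All libraries come from embryonic stem cells of mouse strain 129/SvP, grown at low density in serum (FBS) with LIF, the cytokine that keeps such cells undifferentiated. The 4 treatments were no addition (untreated), 500 µM vitamin C, 1 mM L-proline, and vitamin C with L-proline, called both below. Each was sampled on day 2 and on day 5 by reduced representation bisulfite sequencing (RRBS), with 1 library per treatment and day. RRBS reads fragments released by a restriction enzyme, so the tiles are a sample of CpG-containing fragments and not of the whole genome.

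Methylation of cytosine at CpG sites is copied onto new DNA strands by DNMT1 with its partner UHRF1, and is lost when this copying lapses or when TET enzymes oxidize the mark. Vitamin C is a cofactor that raises TET activity in stem cells, and L-proline is an amino acid that moves stem cells toward a later pluripotent state. In embryonic stem cells treated with vitamin C, imprinted regions and some retrotransposon families, such as intracisternal A particles, are known for keeping methylation while much of the genome loses it. Bisulfite sequencing does not tell 5-methylcytosine from its TET product 5-hydroxymethylcytosine. A level is an average over cells and both alleles, so fewer methylated cells and fewer methylated copies per cell cannot be told apart. No annotation or genome of the files' build (mm9) was used here, so the tiles are given by coordinates, without gene names or sequence.

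Because the rule reads the level in all 8 libraries, every level and every difference between libraries in these tiles is a description and carries no test. No treatment and day has a replicate, so the error given for a treatment difference is the SD over the 4 matched pairs of libraries that share day and L-proline. Whether libraries came from separate cultures is not stated in the labels, so the pairs may not be independent. Reads are PCR products without molecular identifiers, so the Wilson intervals given below cover counting error only. The rule left 616929 CpGs, and the median coverage of CpGs covered everywhere, chromosomes X and Y included, was 27 to 56 reads per library. In the unmethylated lambda contig listed in the files, 0.195% to 0.513% of reads were methylated. Persistent tiles had a median of 1028 reads over the 8 libraries (middle 50% of tiles, 786 to 1421), against 945 in the other high tiles and 1137 in all eligible tiles. In its shallowest library a persistent tile had a median of 75 reads.

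The tiles were highest with L-proline alone and lowest with vitamin C alone. Their mean level on day 2 was 90.8% in the untreated library, 88.7% with vitamin C, 93.8% with L-proline and 89.6% with both. On day 5 it was 93.0% untreated, 88.0% with vitamin C, 95.1% with L-proline and 88.9% with both. The SD over tiles within a library lay between 3.07 and 4.77 points, so the distributions of all 8 libraries overlapped. In the other high tiles the day 5 means were 90.6% untreated, 76.0% with vitamin C, 93.9% with L-proline and 79.9% with both. Without vitamin C, too, the persistent tiles were higher than the other high tiles, at 93.2% against 90.7% on average over the 4 libraries.

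**Figure D1:**
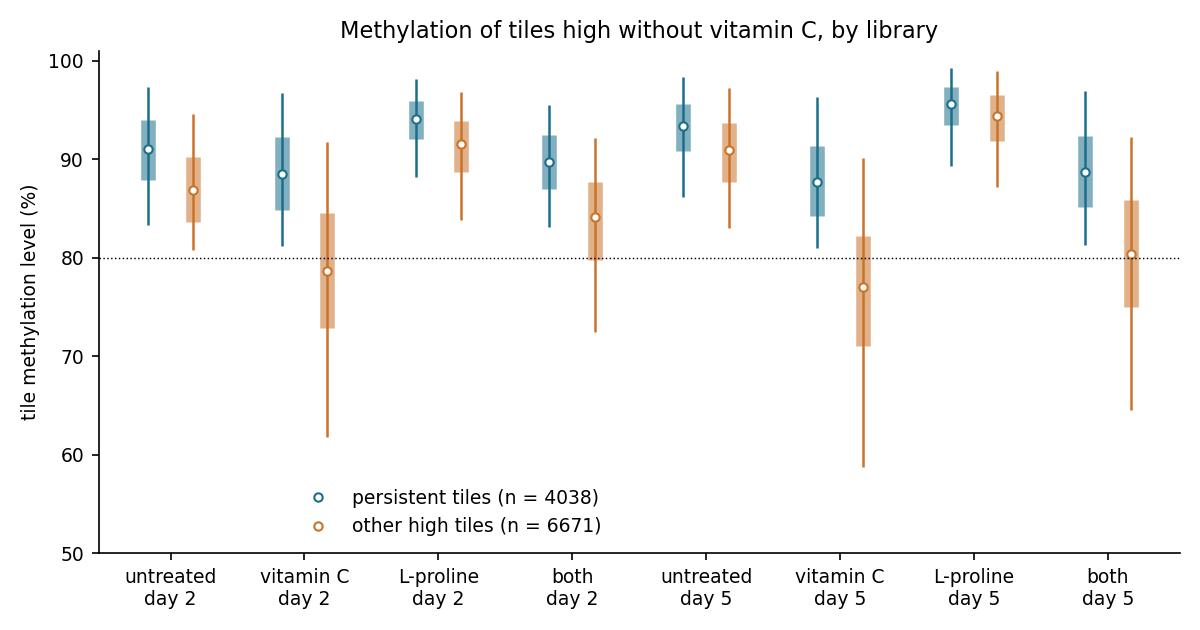
Methylation level of tiles (%, vertical axis) in each of the 8 libraries for the 4038 persistent tiles and the 6671 other high tiles. Circles are medians over tiles, thick bars the middle 50% of tiles, thin lines the 5th to 95th percentile, and the dotted line the 80% level of the rule. Persistent tiles lie above the line by choice, with medians from 87.7% (vitamin C, day 5) to 95.6% (L-proline, day 5).

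The label of these tiles, resistant to vitamin C, describes the rule and not an absence of change. In each of the 4 matched pairs the mean level was lower with vitamin C. The difference was -2.11 points on day 2 without L-proline and -4.15 points on day 2 with it. On day 5 it was -5.04 points without L-proline and -6.26 points with it. The mean over pairs was -4.39 ± 1.75 points (SD, 4 pairs). The same mean was -11.3 ± 3.46 points in the other high tiles and -10.2 ± 4.44 points over all eligible tiles. As the rule bounds the loss, the smaller value in the persistent tiles was fixed by the choice. Stated as unmethylated reads, the mean share in persistent tiles was 9.21% untreated and 11.3% with vitamin C on day 2, a ratio of 1.23. On day 5 with L-proline it was 4.88% without and 11.1% with vitamin C, a ratio of 2.28. In the same pairs the ratios were 1.71 and 3.30 in the other high tiles. Over all eligible tiles, which were 48.7% and 36.6% unmethylated without vitamin C, they were 1.11 and 1.41.

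**Figure D2:**
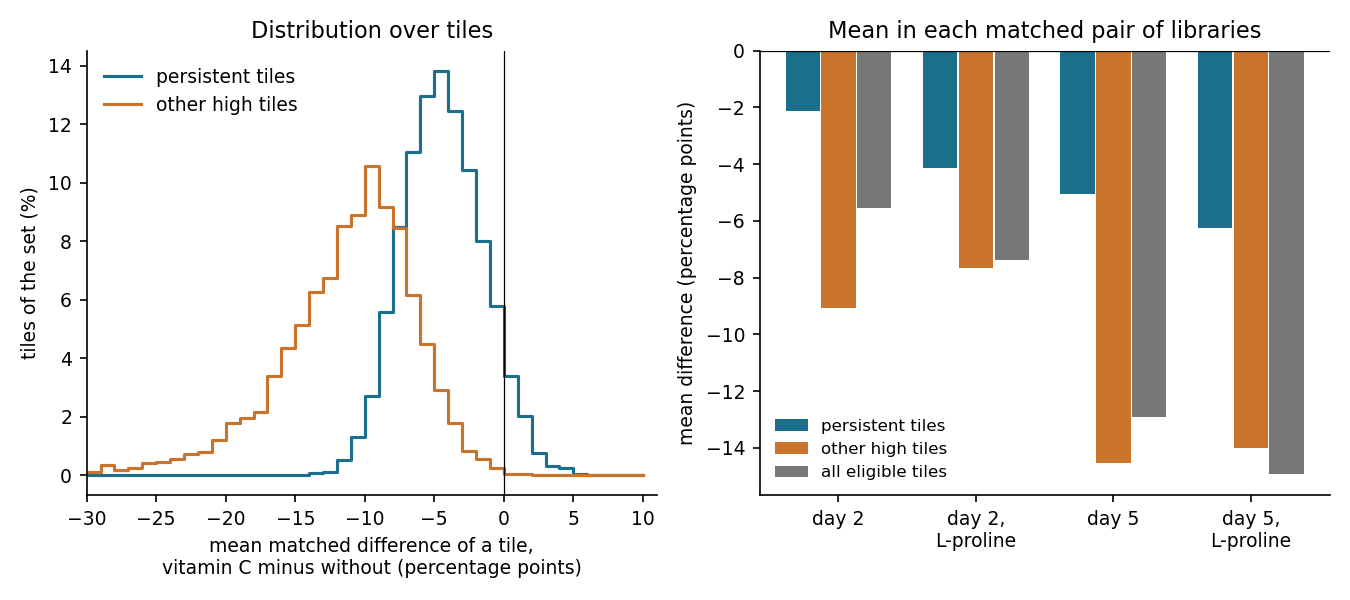
Left, the share of tiles (%) in bins of 1 percentage point of their mean matched difference, vitamin C minus without, for persistent and other high tiles; the axis starts at -30 points, below which lay 38 of the other high tiles. Right, the mean difference over tiles in each of the 4 matched pairs for persistent, other high and all eligible tiles. All bars are negative, and those of the persistent tiles run from -2.11 to -6.26 points.

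Tile by tile, small losses were common. Averaged over the 4 pairs, 1645 persistent tiles (40.7%) lost 5 to 10 points and 1482 (36.7%) lost 2 to 5 points. Another 776 (19.2%) stayed within 2 points, 81 (2.01%) lost more than 10 points and 54 (1.34%) gained more than 2 points. Of all eligible tiles, 23.5% lost 5 to 10 points, 12.5% lost 2 to 5 points and 19.5% stayed within 2 points. A further 44.0% of them lost more than 10 points, a loss that the rule bounds in persistent tiles, and 0.487% gained more than 2 points. The level was lower with vitamin C in all 4 pairs in 1730 persistent tiles (42.8%) and higher in all 4 in 10 persistent tiles. Among all eligible tiles these shares were 57.1% and 0.364%. The library with the lowest level of a tile was one with vitamin C in 85.5% of persistent tiles, close to the 85.9% of all eligible tiles. It was vitamin C on day 5 in 1175 tiles, vitamin C on day 2 in 956, both on day 5 in 921 and both on day 2 in 399.

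A fit across all tiles was made for the record and nothing is read from it, since the rule used the same contrast. It was limma on the log2 of methylated over unmethylated reads, additive in the 2 supplements and the day, over 50167 tiles with 3 or more CpGs on all main chromosomes. Of these tiles, 23.2% were called lower with vitamin C, meaning a Benjamini-Hochberg adjusted p under 0.05 and a mean loss of at least 10 points. Among the persistent tiles 81 were called, which are the 81 with a mean loss over 10 points. Leaving out 1 library moved this count between 34 and 236, and centring all libraries on one median took it to 0. The count over all 50167 tiles, 11645 as reported, moved as well. It lay between 2659 and 14136 without 1 library and was 205 after centring. At the same adjusted p and any size, 810 persistent tiles (20.1%) were lower against a background of 34.3%. At an unadjusted p under 0.05 they were 1528 lower, against 47.7% of all tiles, and 2 higher, against 0.588%. For 1 persistent tile, chr7:6565001-6566000, the fit called a higher level at any size, against 0.171% of all tiles. No persistent tile passed an adjusted p of 0.05 for L-proline or for day, nor did any of the 50167 tiles (0% called in each direction). At an unadjusted p under 0.05, limma gave 358 persistent tiles higher and 9 lower with L-proline, and 125 higher and 55 lower on day 5. The same unadjusted rule took 15.2% and 0.767% of all tiles for L-proline, and 6.55% and 0.977% for day.

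How far above the threshold the tiles lay varied. The median level in a tile's lowest library was 84.0%. In 1081 tiles (26.8%) that level was from 80% to under 82%, in 275 it was 90% or more and in 4 it was 95% or more. With 95% Wilson intervals on the reads, 764 tiles (18.9%) had a lower bound of 80% or more in all 8 libraries. Conversely, 4477 eligible tiles outside the set had an upper bound of 80% or more in every library. The border of the set is therefore not sharp at this depth. Just inside it, chr1:164535001-164536000 had exactly 80% in the library with both on day 5 (75 reads, Wilson interval 69.6% to 87.5%). Its other levels were 95% untreated, 94.0% with vitamin C, 93.3% with L-proline and 92.8% with both on day 2, and 94.7%, 87.0% and 86.9% in that order on day 5. The tiles chr2:57533001-57534000 and chr2:69386001-69387000 also touched 80%, with vitamin C and with both on day 5. Just outside, chr17:26792001-26793000 and chr13:7623001-7624000 had 79.999% and 79.998% as their lowest level, with vitamin C on day 5 and on day 2, a shortfall within the rounding of the deposited fractions. The third tile just outside, chr11:35486001-35487000, had 79.998% in the untreated library of day 2 and was higher with vitamin C in all 4 pairs, by 3.26 ± 2.94 points.

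The tiles with the highest minimum over libraries had mean differences smaller than their SD over pairs. In chr6:26016001-26017000, with 3 CpGs within 21 bp, the day 2 levels were 98.6% untreated, 95.7% with vitamin C, 97.5% with L-proline and 98.4% with both. On day 5 they were 95.7%, 95.8%, 99.2% and 95.5%. The libraries with and without vitamin C overlapped, and the difference was -1.40 ± 2.27 points. Its CpG at position 26016085 was 100% methylated in every library, at 22 to 47 reads. The lowest library of chr5:149123001-149124000 was L-proline on day 2 at 95.3%, and its difference was -0.65 ± 1.89 points. In chr4:53308001-53309000, which has 8 CpGs within 108 bp and 2421 reads, the day 2 levels were 98.7% untreated, 95.1% with vitamin C, 95.9% with L-proline and 95.6% with both. On day 5 they were 96.4%, 96.4%, 95.5% and 98.9%, with the highest value in a library with vitamin C. Its difference over the pairs was -0.14 ± 2.83 points.

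At the other end, the tiles with the largest losses started close to complete methylation and ended near the threshold, which the bounds of the rule impose. In chr9:119441001-119442000, with 3 CpGs over 104 bp, the day 2 levels were 98.7% untreated, 80.01% with vitamin C, 94.8% with L-proline and 88.0% with both. The day 5 levels were 100% untreated, 84.6% with vitamin C, 95.9% with L-proline and 82.6% with both. All 4 libraries with vitamin C lay below all 4 without it, and the difference was -13.5 ± 5.04 points. Its 3 CpGs lost unequally. The CpG at 119441906 averaged 95.7% without and 75.9% with vitamin C, the one at 119441802 averaged 100% and 86.3%, and the one at 119441835 averaged 97.4% and 91.2%. In chr7:74842001-74843000 the difference was -13.4 ± 2.40 points, the steadiest of the 5 largest over the pairs, on only 30 to 102 reads per library. It was 100% untreated and 84.6% with vitamin C on day 2, and 97.1% and 83.3% on day 5. In chr15:87405001-87406000 the difference was -13.3 ± 5.81 points. The tiles chr8:34776001-34777000 and chr4:16529001-16530000 differed by -12.4 ± 3.91 and -12.3 ± 7.09 points. In chr8:34776001-34777000 too the loss was uneven, since its CpG at 34776774 averaged 96.5% without and 71.2% with vitamin C and its CpG at 34776735 averaged 100% and 93.1%.

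The largest gains were smaller than the largest losses. In chr17:38498001-38499000 the gain of 5.03 ± 9.21 points came from day 5 without L-proline, at 81.3% untreated (59 reads) and 100% with vitamin C. Its other 6 libraries lay between 91.7% and 94.4%. In chr6:128873001-128874000 the gain was 4.87 ± 4.97 points, and the tile was higher with vitamin C in 3 of 4 pairs. In chr7:6565001-6566000, with 4 CpGs within 36 bp, the day 2 levels were 96.9% untreated, 100% with vitamin C, 96.3% with L-proline and 96.4% with both. On day 5 they were 88.7%, 98.8%, 91.5% and 97.0%. It was higher with vitamin C in 4 of 4 pairs, by 4.71 ± 4.24 points.

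Tiles that were higher without vitamin C were more often persistent, and those that were persistent lost more. Among tiles averaging 85% to 90% without vitamin C, 341 of 2765 high tiles (12.3%) were persistent, and these differed by -2.28 ± 2.12 points. Among those averaging 90% to 95%, 2827 of 6643 (42.6%) were persistent and differed by -4.43 ± 1.93 points. Among those averaging 95% to 100%, 866 of 1160 (74.7%) were persistent and differed by -5.12 ± 1.18 points. The rule forces this rise in share, because a tile that starts higher can lose more before it leaves the set. It bounds the loss of persistent tiles by their starting level in the same way. The other high tiles of the same 3 levels differed by -11.6, -11.1 and -11.7 points, with no such rise. The rule shapes these values as well, since each of these tiles fell below 80% in some library with vitamin C. Among tiles averaging 80% to 85% without vitamin C, 4 of 141 high tiles were persistent. These differed by 1.76 ± 1.49 points, against -11.3 points in the other high tiles.

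Averaged over the 4 pairs, the differences with L-proline and with day were smaller than the one with vitamin C in the persistent tiles, though not in every pair. The mean L-proline difference was 1.73 ± 1.01 points (SD, 4 pairs). Between the libraries lacking vitamin C it was 2.98 points on day 2 and 2.09 points on day 5, and between those with vitamin C 0.951 and 0.873 points. The mean L-proline difference was 4.13 ± 0.868 points in the other high tiles and 5.10 ± 1.198 points over all eligible tiles. From day 2 to day 5 the mean level was higher by 2.24 points in untreated cells and by 1.35 points with L-proline. With vitamin C the day difference was -0.687 points, and with both it was -0.764 points.

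To describe persistence in libraries that a choice did not use, tiles were chosen on one day and read on the other. Of 6503 tiles at 80% or more in all 4 libraries of day 2, 4076 (62.7%, Wilson interval 61.5% to 63.8%) were at 80% or more in both vitamin C libraries of day 5. Of 4535 tiles at 80% or more in both day 2 libraries lacking vitamin C, but below it in at least 1 of the others, 1078 (23.8%, 22.6% to 25.03%) were. These intervals, and those of the reverse choice, count tiles read in the same libraries, so they do not measure the spread between libraries. Leaving out 1 of the day 2 libraries from the choice gave 54.4% to 62.6% in place of 62.7%. The day 5 vitamin C difference of the first group was -8.26 points without and -9.00 points with L-proline. In the second group it was -14.5 and -14.3 points. The first group was also higher on day 5 without vitamin C, at 93.6% against 91.4%. Its losses on day 5 were larger than those of the persistent tiles, whose choice used day 5.

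The reverse choice gave the same order. Of 5382 tiles at 80% or more in all 4 libraries of day 5, 77.2% (76.0% to 78.3%) were at 80% or more in both vitamin C libraries of day 2. Among 9411 tiles at 80% or more in both day 5 libraries lacking vitamin C, but below it in at least 1 of the others, it was 28.2% (27.3% to 29.1%). The day 2 differences were -3.95 and -4.68 points in the first group and -7.42 and -9.05 points in the second. The first group was also higher on day 2 without vitamin C, at 91.3% against 84.6%. Tiles chosen in the libraries without L-proline were at 80% or more in both vitamin C libraries with L-proline in 83.3% of 4864 cases, against 47.1% of the 6020 tiles that the same libraries placed among the others. Chosen with L-proline and read without it, the shares were 56.2% of 7438 and 12.8% of 7261. In the libraries read, levels lacking vitamin C averaged 94.2% against 92.1% when chosen without L-proline. When chosen with it they averaged 90.4% against 83.9%. The part of these starting levels in the shares was not tested.

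The CpGs of persistent tiles that the rule did not use had larger differences than the tiles as measured by the rule, which bounds their loss. Such CpGs had 10 or more reads in both libraries of a pair but not in all 8. There were 4072 of them in 1545 tiles. Their vitamin C difference was -6.57 ± 2.65 points (SD, 4 pairs), against -10.7 ± 3.94 points for 7131 such CpGs in the other high tiles. By pair it was -3.91 and -4.75 points on day 2 and -8.21 and -9.39 points on day 5, without and with L-proline. With vitamin C alone on day 5, 67.0% of these CpGs were at 80% or more, against 88.0% in the untreated library. Their coverage was lower, at a median of 15 to 33 reads per CpG in the libraries with vitamin C, and its part in the difference was not tested.

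Tiles next to a persistent tile had larger differences with vitamin C than the persistent tiles themselves, whose loss the rule bounds. Of the 360 tiles with 3 or more CpGs that adjoin one, 104 were persistent themselves. All 360 averaged 81.4% without vitamin C and 72.4% with it, a difference of -9.01 ± 3.65 points (SD, 4 pairs). The 695 tiles adjoining the other high tiles averaged 70.6% and 60.2%, a difference of -10.4 ± 4.51 points. Of these 695, 105 were persistent. The 256 tiles adjoining persistent tiles that were not persistent themselves differed by -11.1 ± 4.71 points. Around the other high tiles, the 590 adjoining tiles that were not persistent differed by -11.4 ± 4.97 points. Only 13 of the 360 held more than 10 CpGs and 9 were under 20% in all 8 libraries. Among the 8925 tiles adjoining any eligible tile these were 3997 (44.8%) and 5520 (61.8%). Among the 695 tiles adjoining the other high tiles they were 68 (9.78%) and 76 (10.9%), against 3.61% and 2.50% around persistent tiles.

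Persistent tiles lay near one another. At a distance of 1 kb, 29.9% of the 348 eligible neighbours of a persistent tile were persistent. The share was 19.8% at 2 to 5 kb, 15.8% at 6 to 10 kb, 12.5% at 11 to 50 kb and 11.1% at 51 to 100 kb. Within 10 kb it was 19.4% (496 of 2563) around persistent tiles, 12.1% around the other high tiles and 8.04% around all eligible tiles. High tiles in general also lay together. Within 10 kb, 43.5% of the eligible neighbours of a persistent tile were high without vitamin C, against 24.1% around all eligible tiles. Among high neighbours alone, 49.8% were persistent at 1 kb around persistent tiles and 33.5% around the other high tiles. These shares were 46.3% and 34.5% at 2 to 5 kb and 40.4% and 32.1% at 6 to 10 kb. At 11 to 50 kb they were 37.8% and 35.7%, and at 51 to 100 kb 35.4% and 36.9%. The closeness beyond that of high tiles in general was thus seen mainly within 10 kb, was small at 11 to 50 kb and was absent at 51 to 100 kb. High neighbours were not matched by their level without vitamin C, and the part of that level in these shares was not tested. Neighbouring tiles were measured in the same libraries, and each pair of persistent tiles enters these counts from both sides, so no test is given.

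**Figure D3:**
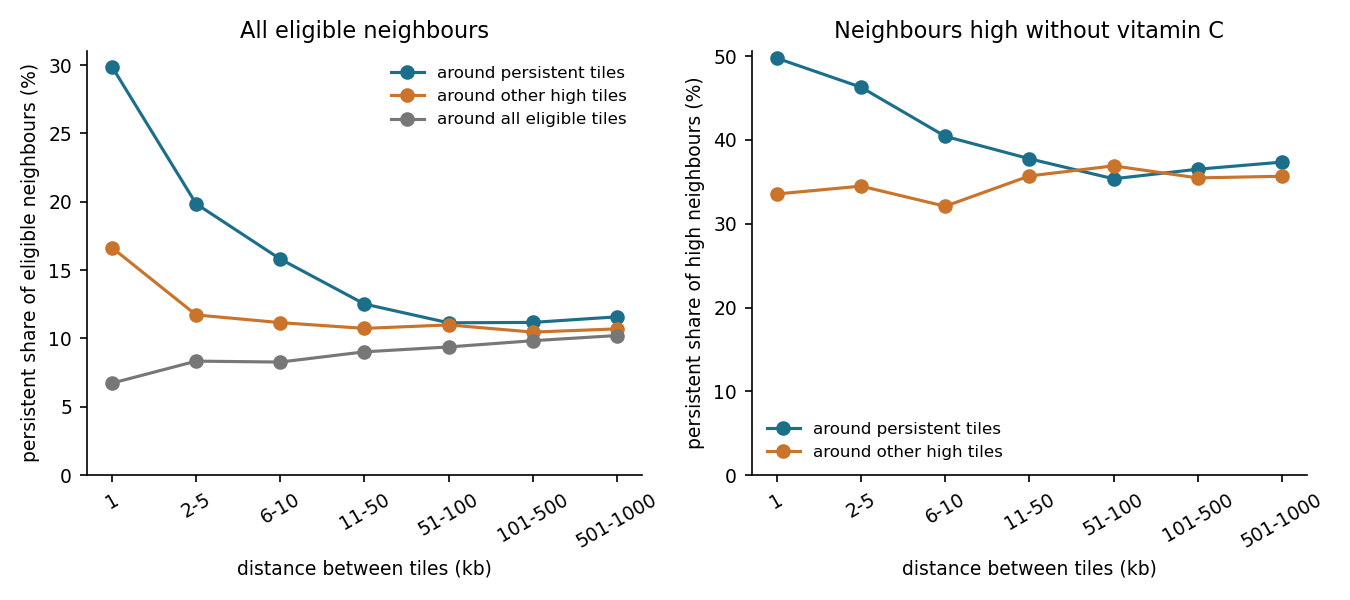
Share of neighbouring tiles that are persistent (%, vertical axis) by distance between tiles (kb, horizontal axis), around persistent, other high and all eligible tiles. Left, all eligible neighbours; right, only neighbours at 80% or more in the 4 libraries without vitamin C. Around persistent tiles the share declines from 29.9% at 1 kb to 11.1% at 51 to 100 kb on the left, and from 49.8% to 35.4% on the right.

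Even so, most persistent tiles stood alone. The median distance to the nearest other persistent tile was 131 kb, and 440 tiles (10.9%) had another within 10 kb. There were 52 runs of 2 adjoining tiles, no longer run, and 3934 single tiles. In 13 of the 52 pairs the nearest CpGs on either side of the border were within 100 bp, near enough that single reads may cover both. The median distance across the border was 588.5 bp. The first of these runs, chr1:38324001-38326000, held 9 CpGs, and its tiles differed by -3.64 ± 2.17 and -7.20 ± 6.25 points. The run chr1:47843001-47845000 held 16 CpGs and differed by -0.81 ± 4.43 and -1.30 ± 1.75 points, so that both tiles overlapped between libraries with and without vitamin C. The CpGs nearest its border lie at 47843980 and 47844001, so this run is among the 13 pairs that single reads may cover. In chr2:30087001-30089000, with 10 CpGs, the differences were -2.80 ± 4.72 and -2.79 ± 5.70 points.

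Of 13411 windows of 100 kb with an eligible tile, 3412 held at least 1 persistent tile and 91 held 3 or more. The fullest, chr4:154300001-154400000, held 6 among 14 eligible tiles, of which 8 were high without vitamin C. Within it the tile chr4:154346001-154347000, with 8 CpGs within 76 bp, had levels on day 2 of 96.5% untreated, 92.5% with vitamin C, 97.9% with L-proline and 94.8% with both. On day 5 it had 95.8%, 94.2%, 96.4% and 93.6%, with all libraries with vitamin C below all without it and a difference of -2.87 ± 0.99 points. The next tile, chr4:154347001-154348000, is persistent too, at -3.46 ± 2.85 points. In the same window chr4:154352001-154353000 was at 80.2% with vitamin C on day 5 and differed by -8.23 ± 4.23 points, so tiles a few kb apart differed in how close they came to the threshold. The second window, chr2:76500001-76600000, held 5 among 9 eligible tiles. Its tiles ranged from chr2:76545001-76546000 at -0.30 ± 3.84 points to chr2:76594001-76595000 at -7.06 ± 3.72 points.

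By chromosome the persistent share of eligible tiles ran from 8.71% on chromosome 11 (236 of 2708) to 15.7% on chromosome 1 (430 of 2745), with a median of 11.3%. The same 2 chromosomes had the lowest and the highest share of tiles that were high without vitamin C, 25.8% and 38.6%. As a share of high tiles it ran from 33.8% on chromosome 11 to 42.3% on chromosome 13. The mean vitamin C difference of persistent tiles lay between -4.80 and -3.81 points on every chromosome. Chromosomes were also divided into 10 equal stretches from the first to the last CpG of the set. Mouse chromosomes have their centromere at the start, and the first stretch had the highest shares, 14.1% of eligible and 43.9% of high tiles. The eighth stretch had the lowest, 9.59% and 32.8%. In the last 5 Mb, 33.1% of high tiles were persistent, against 41.8% in the first 5 Mb and 37.9% between.

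**Figure D4:**
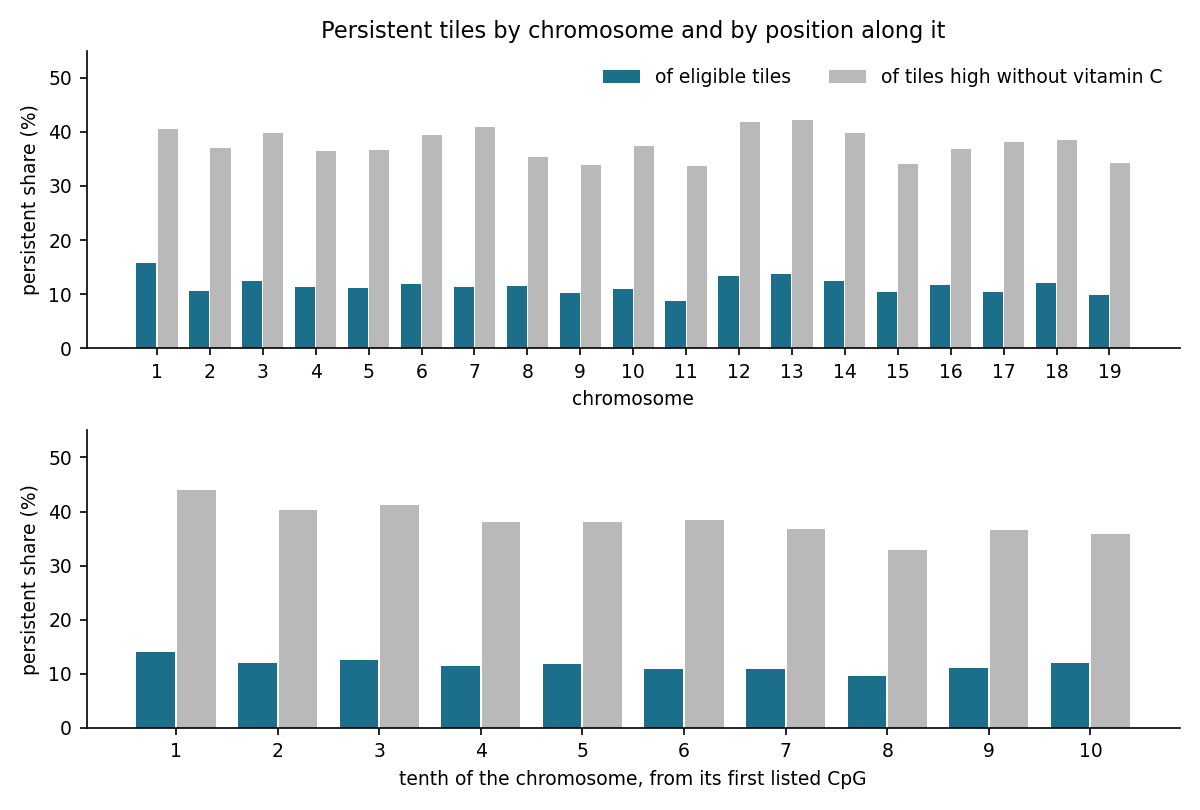
Persistent tiles as a share (%) of eligible tiles and of tiles high without vitamin C, by chromosome (top) and by 10 equal stretches of the chromosome from its first to its last listed CpG (bottom). The share of eligible tiles runs from 8.71% to 15.7% over chromosomes and from 9.59% to 14.1% over stretches.

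Over smaller distances the shares spread more. Among 141 bins of 10 Mb with 100 or more eligible tiles, the persistent share had a median of 11.2%. The lowest was 3.89% (7 of 180) on chromosome 4 between 110 and 120 Mb, where 15.9% of the 44 high tiles were persistent. The highest was 22.8% (50 of 219) on chromosome 1 between 90 and 100 Mb, where 51.5% of the 97 high tiles were persistent. On chromosome 17 between 10 and 20 Mb, 20 of 30 high tiles were persistent. These extremes were picked from all bins after their values were seen.

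Persistent tiles sat farther from CpG-dense sequence than other tiles. Their median distance to a tile with more than 10 CpGs was 72 kb, against 51 kb for the other high tiles and 33 kb for all eligible tiles. The nearest tile under 20% in all 8 libraries was at a median of 58 kb, against 41 kb for the other high tiles. For all eligible tiles the median was 19 kb. Eligible tiles that are themselves under 20% enter that value at 0 kb, so it is not a like distance. Within 5 kb on either side, a persistent tile had a median of 3 further CpGs of the set, as did the other high tiles, and all eligible tiles had 5. The share with 50 or more such CpGs was 2.33% for persistent, 3.31% for other high and 10.2% for all eligible tiles. These are distances between CpGs that RRBS covered in all libraries, not between all CpGs of the genome.

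Within the tile, however, persistent tiles were the denser of the high tiles. The median distance between neighbouring CpGs was 19 bp in persistent tiles, 23 bp in the other high tiles and 17 bp in all eligible tiles. Gaps of up to 10 bp were 30.05% of 12902 gaps in persistent tiles and 24.3% of 19889 in the other high tiles. At an equal number of CpGs the order held: with 3 CpGs the medians were 28 and 30 bp, with 5 they were 16 and 19 bp, and with 10 they were 13 and 15 bp. Against all eligible tiles with 3 CpGs, at 28 bp, there was no difference in the median. The median span from first to last CpG was 81 bp in persistent and 86 bp in other high tiles.

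The share of high tiles that were persistent went with both CpG number and span. It was 34.4% of 5001 high tiles with 3 CpGs, 41.4% of 1433 with 5, 43.0% of 770 with 6, 45.5% of 374 with 7, 42.1% of 178 with 8 and 56.6% of 53 with 10, so the rise was broken at 8. It was 40.9% for spans up to 50 bp, 38.05% for 51 to 100 bp, 35.7% for over 100 to 200 bp and 33.1% above 200 bp. Reads moved with both: the median over the 8 libraries was 764 reads in high tiles with 3 CpGs and 2907 in those with 10. Persistence itself went with reads, at 32.4% in the lowest and 44.6% in the highest of 4 equal groups of high tiles by reads. Divided at the median of 975 reads, tiles with 3 CpGs were persistent in 33.5% of 4134 and 38.8% of 867 cases. Those with 4 CpGs were persistent in 34.8% of 1039 cases below and 40.0% of 1753 above that median. With 5 CpGs it was 38.2% of 173 cases below and 41.8% of 1260 above. So with 3, 4 and 5 CpGs the share was higher with more reads, and 3 and 4 CpGs differed little at like depth. With 6 CpGs, where 17 high tiles lay below the median, the order was the opposite, at 64.7% (11 tiles) below and 42.5% of 753 above it. With 7 CpGs 1 high tile lay below the median, and 45.3% of 373 above it were persistent. Above the median the share thus rose at each step from 3 to 7 CpGs. Reads within either side of the median were not matched further. For spans up to 50 bp the shares were 38.3% and 46.7%, and for spans over 100 to 200 bp they were 31.1% and 40.6%. The order over these spans was thus the same on both sides of the median, while above 200 bp the shares were 33.0% and 33.2%. The mean level of high tiles without vitamin C fell with span too. It was 92.3% up to 50 bp, 91.5% at 51 to 100 bp, 91.35% over 100 to 200 bp and 91.05% above 200 bp. The part of this level in the shares by span was not tested.

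**Figure D5:**
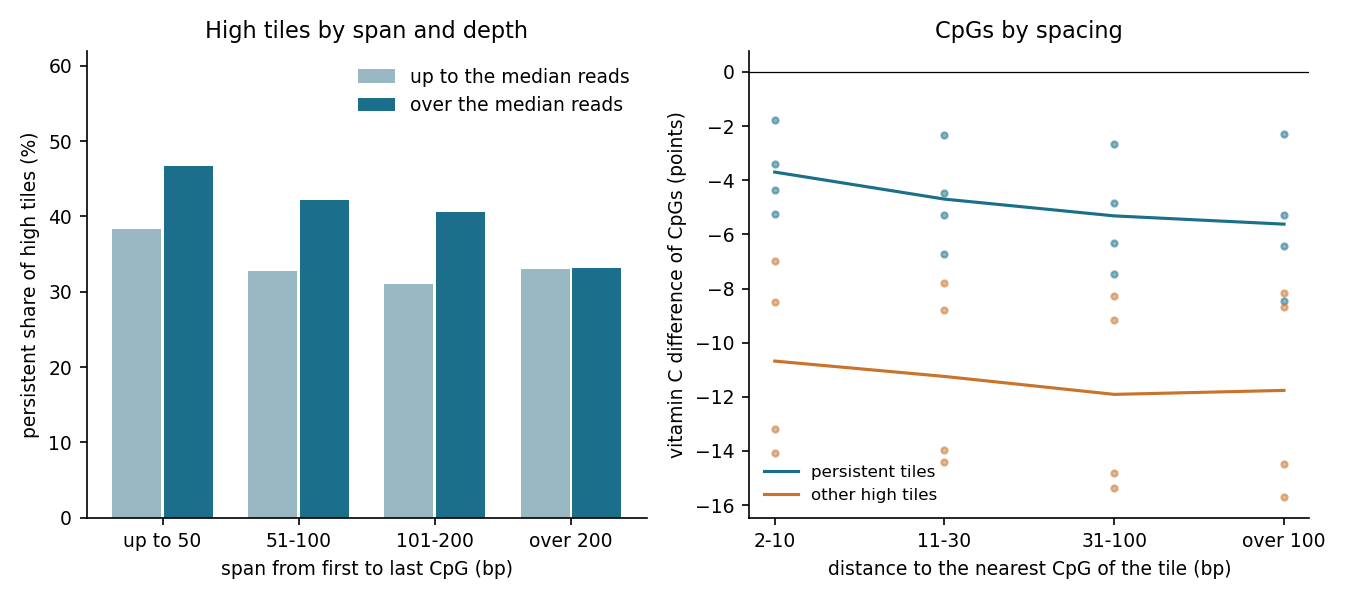
Left, the persistent share of high tiles (%) by span from first to last CpG (bp), separately for tiles with up to and over the median of 975 reads. Right, the mean vitamin C difference of single CpGs (percentage points) by distance to the nearest CpG of the same tile (bp); dots are the 4 matched pairs and lines their mean. Spans up to 50 bp have the highest share in both groups, and CpGs of persistent tiles 2 to 10 bp apart have the smallest mean loss, -3.70 points.

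The remaining losses also differed by spacing. Persistent tiles with a span up to 50 bp differed by -3.51 ± 1.24 points and those above 200 bp by -4.81 ± 1.88 points. Among the 16940 CpGs of persistent tiles, those with another CpG of the tile within 2 to 10 bp differed by -3.70 ± 1.49 points. At 11 to 30 bp the difference was -4.70 ± 1.85 points, at 31 to 100 bp -5.32 ± 2.07 points and above 100 bp -5.62 ± 2.58 points. The first 3 classes were in this order in each of the 4 pairs. The class above 100 bp, with 306 CpGs, was not the lowest on day 2 without L-proline, at -2.31 points against -2.66 points. The closely spaced CpGs were also higher without vitamin C, at 93.8% against 92.1% at 31 to 100 bp, with like coverage (30 and 31 reads). In tiles chosen on day 2 alone and read on day 5, the first 3 classes differed by -7.28, -8.31 and -9.52 points without L-proline and by -7.73, -9.22 and -10.2 points with it. In the other high tiles they differed by -10.7, -11.2 and -11.9 points on average. The outermost CpGs of persistent tiles differed by -4.92 ± 1.78 points and the inner ones by -4.02 ± 1.76 points.

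Single CpGs of persistent tiles did not all stay high. Of the 16940 CpGs, 97.7% were at 80% or more with L-proline on day 5 and 81.7% with vitamin C on day 5. In 426 tiles (10.5%) every CpG was at 80% or more in all 8 libraries. There were 127 CpGs at 100% in all 8. On the other side, 3373 CpGs (19.9%) were lower with vitamin C in all 4 pairs, and 122 CpGs in 119 tiles lost 20 points or more on average. Only 5 tiles held a CpG that averaged under 50% in the libraries with vitamin C.

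Tiles with the widest range between CpGs show how a tile average can hide 1 site. In chr11:115664001-115665000, with 9 CpGs, the CpG at 115664962 was at 0% in all 8 libraries. It had 13 to 32 reads per library, where a count of 0 allows a share of up to 9.375% to 23.1%. Pooled over the 8 libraries it had 173 reads, which allows up to 1.73%. No genome sequence was used, so whether these cells carry a CpG at this position was not checked. The CpGs on either side, at 115664959 and 115664966, averaged 98.5% and 98.3% in the libraries lacking vitamin C, against 84.9% and 85.3% in the others. The tile as a whole differed by -6.40 ± 3.28 points. In chr3:22768001-22769000, with 6 CpGs within 37 bp, the CpG at 22768266 had day 2 levels of 52.3% untreated, 50.4% with vitamin C, 43.1% with L-proline and 39.8% with both. On day 5 it had 62.5%, 45.9%, 58.8% and 50%, on 68 to 113 reads. The CpGs at 22768264 and 22768272 averaged between 93.5% and 95.4%, and the CpG at 22768278 was at 100% in every library. The intermediate CpG was present with and without vitamin C, and its difference of -7.65 points was larger than that of the tile, -1.18 ± 2.13 points. In chr19:42841001-42842000 the last CpG, at 42841609, averaged 60.5% without and 38.2% with vitamin C on 11 to 35 reads. It was lower with vitamin C in each pair, and the tile around it differed by -5.74 ± 4.65 points.

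The denser and the more spread of the tiles with 10 CpGs behaved within the range of the set. In chr3:23586001-23587000 the 10 CpGs lie within 61 bp. Its day 2 levels were 92.1% untreated, 90.7% with vitamin C, 89.5% with L-proline and 87.1% with both, and its day 5 levels were 95.2%, 89.6%, 95.4% and 95.1%. It was lower with vitamin C in 4 of 4 pairs, with a mean difference of -2.41 ± 2.26 points. In chr17:56539001-56540000 the 10 CpGs spread over 880 bp. Its lowest level was 83.0%, untreated on day 2, and its difference was -4.30 ± 5.42 points.

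The most deeply read persistent tile stood apart in depth and not in level. It was chr2:98506001-98507000, with 1519230 reads over its 3 CpGs and 8 libraries, where the next tile had 6543. Its day 2 levels were 90.4% untreated, 88.6% with vitamin C, 92.1% with L-proline and 89.9% with both. Its day 5 levels were 91.3%, 89.1%, 93.9% and 89.8%. Each vitamin C library was below its match, and the difference was -2.56 ± 1.04 points. The coverage listed at its CpG 98506660 lay between 65462 and 65494 reads in all 8 libraries, so it did not follow the depth of the library. Neither the labels nor the files say whether listed coverage has an upper limit, so the read total of this tile may understate its reads. Whether all its reads come from 1 place in the genome was not tested, so its level may not be that of a single stretch. The mean of the set weights tiles equally, so this tile counts as 1 of 4038.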

How the data were processed

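Reduced representation bisulfite libraries of 4 treatments on 2 days were analysed, with 1 library per treatment and day. The files list, for each CpG, the fraction of reads methylated (0 to 1) and the coverage in reads, both as deposited by the authors, with a minimum of 10 reads. The submitters' processing notes name CASAVA, BSMAP 2.88 and the mouse build mm9. Settings, duplicate removal and normalization are not given in the sources used here. Coverage is whole for 99.3% to 99.6% of CpGs. All CpGs carry 1 strand sign.

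Levels were computed from fraction times coverage, with ties at 80% counted as at the level. For limma 3.58.1 (R 4.3.3), tile reads were rounded and tested as log2((methylated + 1)/(unmethylated + 1)), with Benjamini-Hochberg adjustment over 50167 tiles and 4 residual degrees of freedom. Counting and intervals used numpy 2.4.6, pandas 2.3.3 and scipy 1.17.1. The rule and the fit were tested on simulated data. With 1 library a group, the p-values take the L-proline and day terms as additive.

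Tiles named are those with the highest lowest-library level (3), the largest mean loss (5) and gain (3), 3 on either side of the 80% level, the 3 longest runs, the 2 fullest windows of 100 kb, the most reads, the shortest and longest span with 10 CpGs, and the widest range between CpGs (3). Equal runs were taken in genome order. Single CpGs named within them, and the extreme bins of 10 Mb, were picked after their values were seen. The members and lists were chosen with earlier results of these data known. Gene tables of another build were not used here.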

Additional observations from a re-analysis of the deposited data

Results flagged for a closer look

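The change from day 2 to day 5 in the persistent tiles differed in sign between libraries without vitamin C and those with it. The mean level was higher on day 5 by 2.24 points in untreated cells and by 1.35 points with L-proline. The difference was -0.687 points with vitamin C and -0.764 points with both. The mean of the first 2 values exceeded the mean of the other two by 2.52 points. With 1 library for each treatment and day this difference was not tested, and the levels of these tiles were bounded by the rule in all 8 libraries. The other high tiles had the same signs, at 3.44 and 2.82 points without vitamin C and -2.02 and -3.51 points with it.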

How the results depend on the processing

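No paired analysis by replicate number was possible because each treatment and day has 1 library and the labels number no replicates; libraries were instead matched by day and L-proline in 4 pairs, as reported. At 20 reads per CpG the count of persistent tiles was 1138 (1012 of them among the 4038), the share of tiles chosen on day 2 that held on day 5 was 70.3%, the median CpG gap was 16 bp and 18 tiles were called lower with vitamin C. At a level of 90% the count was 275, the vitamin C difference -1.20 points, the share held on day 5 36.5%, the persistent share of neighbours within 10 kb 6.30% (8.05 times the share of all eligible tiles, against 1.68 times as reported) and the gap 12 bp. At 70% these were 9491, -6.60 points, 82.2%, 35.97% (1.33 times) and 21 bp. With 5 to 10 CpGs per tile the count was 1252, the share held on day 5 68.1% and the gap 15 bp. The share of neighbours was then 23.8% (2.65 times the share of all eligible tiles), and at 20 reads it was 20.05% (2.90 times). The quasi-binomial model called 7 persistent tiles lower and centred libraries 0. Over all tiles the calls fell too, from 11645 as reported to 3115 at 20 reads, 594 quasi-binomial and 205 centred. Without 1 library they were 2659 to 14136. Chosen after seeing the data, a Wilson lower bound of 80% gave 764 tiles and -2.27 points, and the choice without L-proline gave 83.3%. Leaving out 1 library gave 4045 to 5232 tiles, differences from -5.32 to -3.76 points, shares held on day 5 of 54.4% to 62.6% (4 day 2 libraries), neighbour shares of 19.4% to 22.5%, gaps of 19 to 20 bp and 34 to 236 calls. The fewest calls came without the library with both on day 5 (34), and the most without vitamin C on day 2 (236), untreated on day 2 (219), L-proline on day 2 (142) or both on day 2 (141). Shifting tiles by 500 bp, averaging CpG fractions (3702 of 3996 tiles shared) and a pseudocount of 0.5 left each count within 1.5 times and each value within its spread. The difference at unused CpGs stayed between -7.45 and -5.62 points in its alternatives. Depth limits the border: a tile with 75 reads at 80% has an interval of 69.6% to 87.5%. The cause of these shifts was not tested beyond the smaller or larger sets that the settings make.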
